A study of Danio rerio with 12 samples.

Results

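The genes described here encode the initiation factors (eIF1 to eIF6) and elongation factors (eEF1 and eEF2) that load ribosomes onto mRNA and move them along it. They were chosen by name: every row of the count table whose symbol begins with eif1 to eif6, eef1 or eef2, without the eIF2 kinases (eif2ak). The rule gave 61 of 19983 rows, 44 for initiation and 17 for elongation. It used no measured value, but it was chosen with earlier results of these data known. The name table holds 80 identifiers that follow the rule. The other 19, EIF1, EIF3D, EIF4G1 and EIF5 among them, had no row in the count table, so their levels are not known here.

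The libraries were Dx-IONP, from larvae given dextran-coated iron oxide nanoparticles, IC, which is not spelled out in the labels and is by elimination the iron group, and Control, with no agent named. In each group 20 whole zebrafish of Tg(fli:EGFP), whose blood vessels fluoresce, were pooled at 120 hours after fertilization, and the pool gave 1 poly(A) RNA library read on 4 lanes. There is thus n = 1 library per condition, with no replicate check, and neither the dose nor the length of exposure is given in the sources used here. Values are CPM, reads scaled to a common library size with TMM factors that correct for composition. Ranges in brackets after them are over the 4 lanes of a library. A gene is called higher or lower where it is at least 2-fold apart and the exact 95% counting interval of its ratio excludes equality. Such intervals, printed in brackets after log2 folds of single genes, cover counting error only. CPM is not per length, so levels are compared between libraries and not between genes.

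Initiation begins when eIF2, carrying GTP and the initiator tRNA, joins the small ribosomal subunit with eIF1, eIF1A and eIF3, and the cap-binding eIF4 factors bring in the mRNA. eIF1 keeps the scanning ribosome from settling on a wrong start codon and leaves once the right one is found. In elongation, eEF1A delivers each aminoacyl-tRNA, the eEF1B subunits recharge eEF1A with GTP, and eEF2 moves the ribosome on. Cells limit translation mainly by phosphorylating eIF2, which blocks its exchange factor eIF2B, and through the eIF4E-binding proteins, which keep eIF4E from eIF4G.

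The libraries held 55381504 reads for Dx-IONP, 48283541 for IC and 84043873 for Control, and 57 of the 61 genes reached 1 CPM in at least 1 library, as did 16807 genes in all. Markers of several tissues differed between the libraries. Over all genes, 20.9% were called higher and 24.2% lower in Dx-IONP against Control, and 14.1% and 15.1% in IC. Of 6 skeletal muscle rows, 0 were called in Dx-IONP, and 1 was higher and 1 lower in IC. All 5 exocrine pancreas rows were lower in both, with sums of 11.4 CPM in Dx-IONP, 13.9 in IC against 82.2 in Control. Of 3 germ cell rows kept, 1 was higher and 1 lower in Dx-IONP, and 0 were called in IC. The summed level of 6 neuronal marker rows was 134.6 CPM in Dx-IONP, 2345 in IC against 1890.0 in Control, with all 6 called lower in Dx-IONP against Control and none at 0. In IC 1 of these 6 rows was called lower and 0 higher. Of the 9 photoreceptor rows kept, 8 were called lower and 1 higher in Dx-IONP against Control, and 5 lower and 0 higher in IC. The 10 photoreceptor rows matched summed to 30.7 CPM in Dx-IONP, 1093 in IC against 2554 in Control. Of 4 liver rows, 2 were called lower in Dx-IONP, fabp10a (-8.01) and serpina1 (-1.47), while apoa2 (-0.54) and FGG (0.74) were not called, and all 4 were called lower in IC. The 3 red blood cell rows, all called higher in Dx-IONP, summed to 1836 CPM in Dx-IONP, 172 in IC against 254 in Control. In IC 2 of the 3 were called lower and 0 higher. Of 6 epidermal rows, 3 were called higher and 1 lower in Dx-IONP, and 1 was higher and 1 lower in IC. Among them krt4 had 97330 CPM in Dx-IONP, 25649 in IC against 14904 in Control, while krt5 was lower in both (-1.23 each). In IC, 13 of 15 rows for small ribosomal proteins were called lower against Control, against 15.1% of all genes. Their median log2 fold was -3.12, and their sum was 1145 CPM in IC against 5006 in Control. This list was written after a summary of the whole series had been seen, so its count is a description only. The part of these differences in the results that follow was not tested. In whole larvae, fewer cells of a type and less RNA per cell cannot be told apart.

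Comparison of IC with Control asked what differed in the group taken as the iron one. A single gene, EIF1B, was 34.9-fold higher in IC, while most other translation factor genes were lower, led by eef1da, the eIF3 subunit genes EIF3H and EIF3K and the eIF1A gene eif1axa. Of the 57 genes kept, 2 were called higher (3.51%) and 19 lower (33.3%). Over all 16807 genes, 14.1% were called higher and 15.1% lower, 29.2% in all. The median log2 fold of the 57 genes was -0.74 (order-statistic interval over the genes -0.96 to -0.45), against -0.00 over all genes. Genes are not replicates of a condition, so such an interval says nothing of the spread between libraries. In total, 42 of the 57 had a log2 fold below 0 and 15 above it. The other gene called higher was eef2a.1.

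Comparison of Dx-IONP with Control asked the same of larvae given the coated particles. EIF1B was 3.40-fold higher, and EEF1AKMT1, EIF4EBP3, EEF1B2, EIF3I, EIF3M and eif4eb were also called higher. EEF1E1, EIF2A, a paralog of EIF3H and the EEF1A1 rows were among the lower ones. In all, 7 genes (12.3%) were called higher and 11 (19.3%) lower, against 20.9% and 24.2% over all genes (45.1% in either direction). The members' shares thus lay below the background on both sides. Their median log2 fold was 0.24 (order-statistic interval over the genes -0.07 to 0.44), against 0.03 over all genes. Scaled to total reads alone, 4 were called higher and 15 lower, against 13.9% and 31.5% of all genes, and the median was -0.13. That scaling moved the median of all genes to -0.34 in this comparison and to -0.26 in Dx-IONP against IC.

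**Figure D1:**
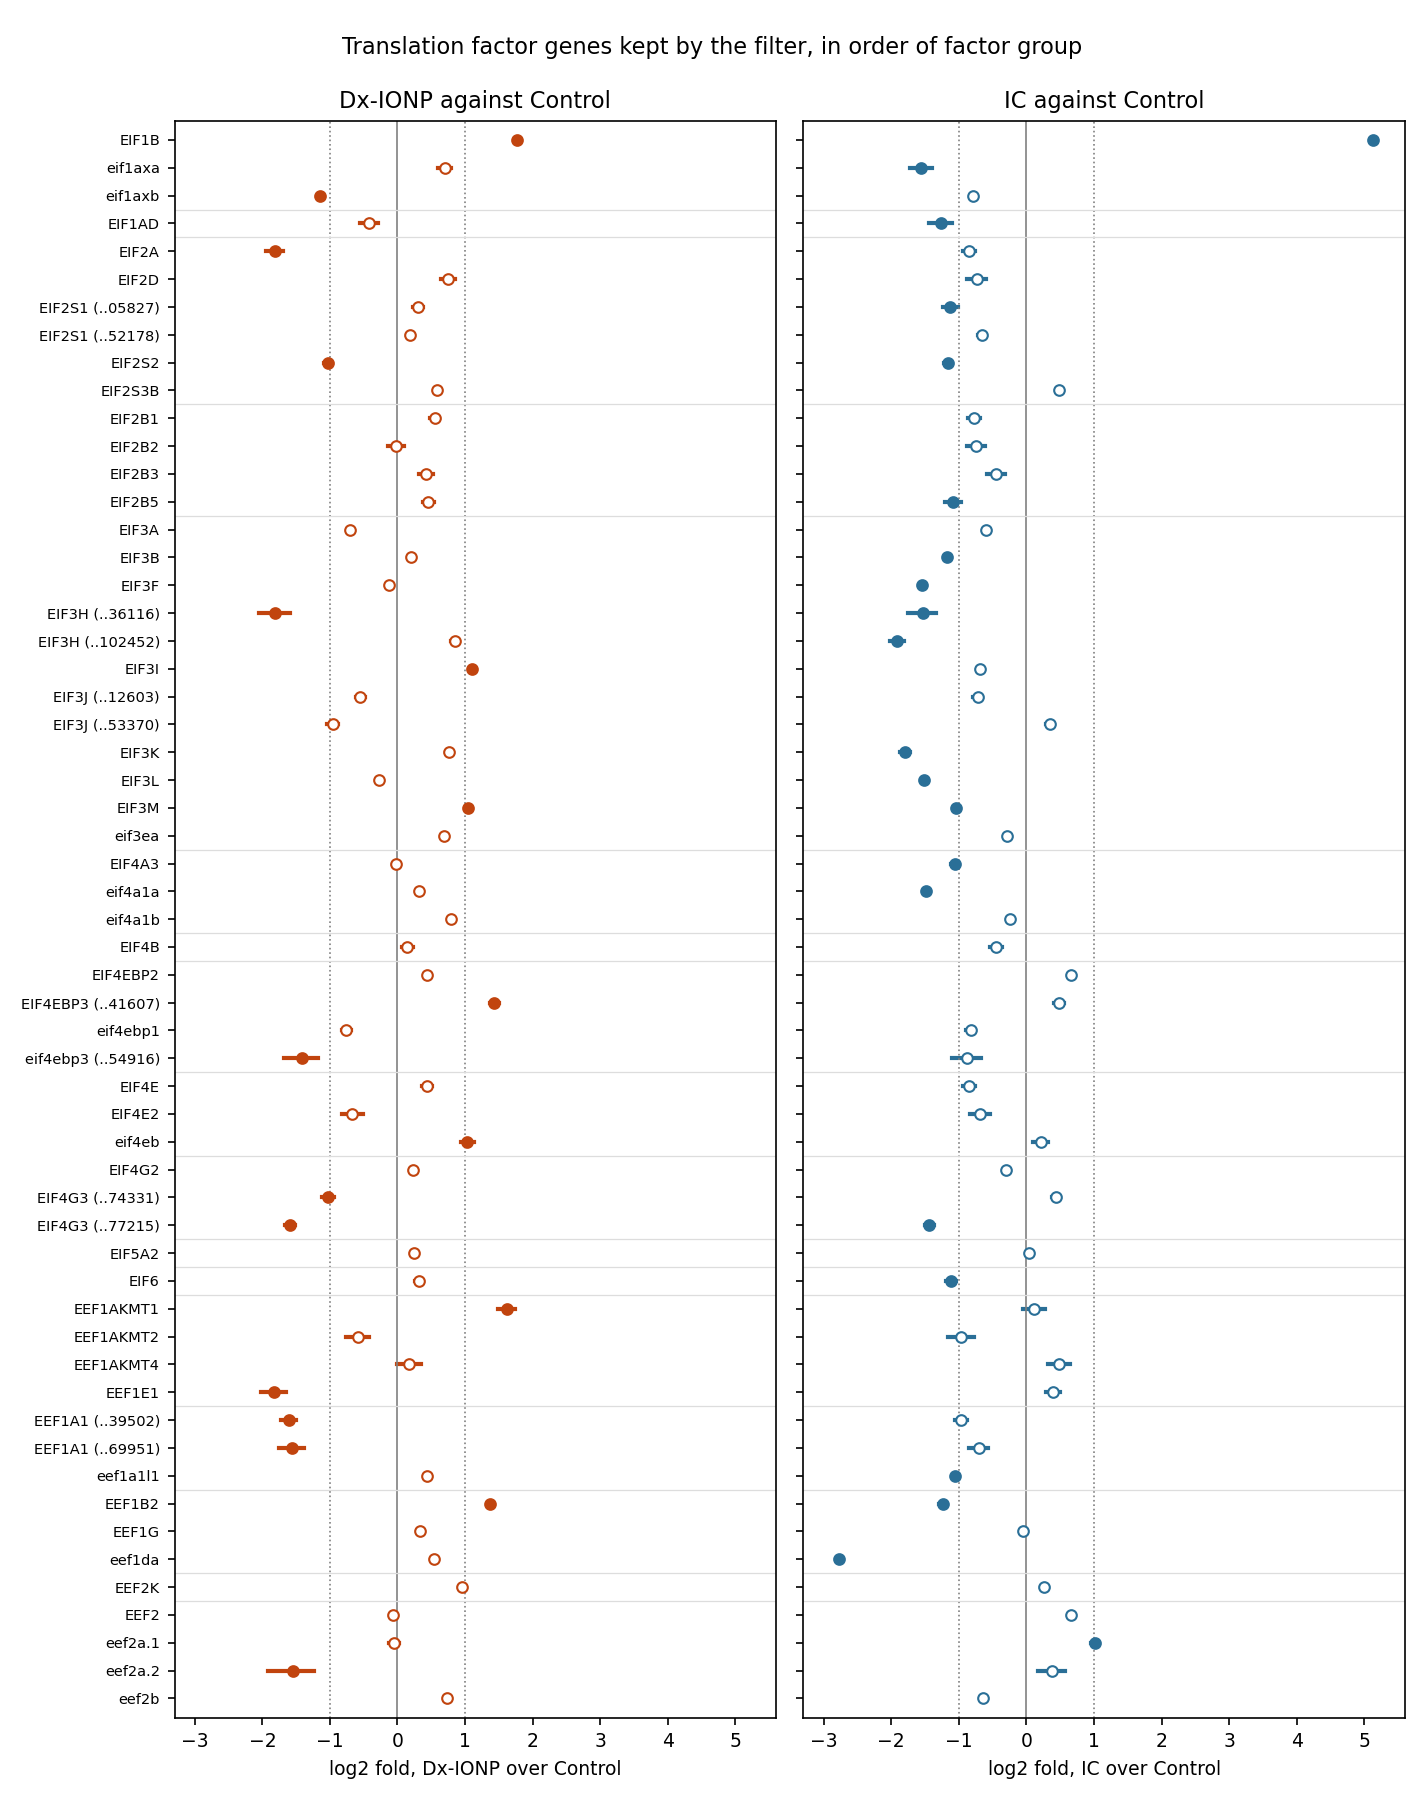
Log2 folds over Control (horizontal axis) of the 57 translation factor genes kept, in order of factor group, for Dx-IONP (left) and IC (right). Filled circles are called, open ones are not, bars are 95% counting intervals, dotted lines mark 2-fold, and paralogs with a shared symbol carry the last digits of their identifier. In IC, EIF1B stands alone at 5.13, while 42 of the 57 genes lie left of 0.

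EIF1B (ENSDARG00000029445) had 1884 CPM in Dx-IONP (lanes 1867 to 1909), 19334 in IC (19116 to 19460) against 554 in Control (542 to 565). The lanes of the 3 libraries did not overlap, although those of IC varied beyond counting noise (chi-square per degree of freedom of 15.2). The log2 fold over Control was 1.77 (1.75 to 1.78) in Dx-IONP and 5.13 (5.11 to 5.14) in IC, the eighth highest of 16807 genes by rank. EIF1B took 0.162% of all reads in Dx-IONP, 2.04% in IC against 0.0613% in Control. By number of reads it was gene 60 in Dx-IONP, gene 3 in IC and gene 193 in Control. In mammals EIF1B is a close paralog of EIF1, the start codon factor. RefSeq (GRCz12tu) lists eif1b both as a gene of its own and as a synonym of eif1, and the table used here does not tie either to this identifier. How reads shared with other eIF1 genes were divided was not tested.

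The eIF1A genes, whose protein sits in the decoding site during scanning, did not follow EIF1B. For eif1axa the level was 32.4 CPM in Dx-IONP (31.3 to 33.7), 6.77 in IC (5.95 to 7.63) against 19.9 in Control (18.0 to 20.8). It was called lower in IC (log2 fold -1.55, -1.73 to -1.39) and was not called in Dx-IONP (0.70, 0.60 to 0.80). For eif1axb the level was 186 CPM in Dx-IONP (182 to 189), 240.4 in IC (232 to 248) against 414 in Control (410.0 to 421). It was called lower in Dx-IONP (-1.15, -1.19 to -1.12) and was not called in IC (-0.78). Neither had a lane of one library within the range of another. EIF1AD, which carries an eIF1A-like domain, was called lower in IC (-1.27) and not in Dx-IONP (-0.42), where its lanes ranged from 7.31 to 15.7 CPM.

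**Figure D2:**
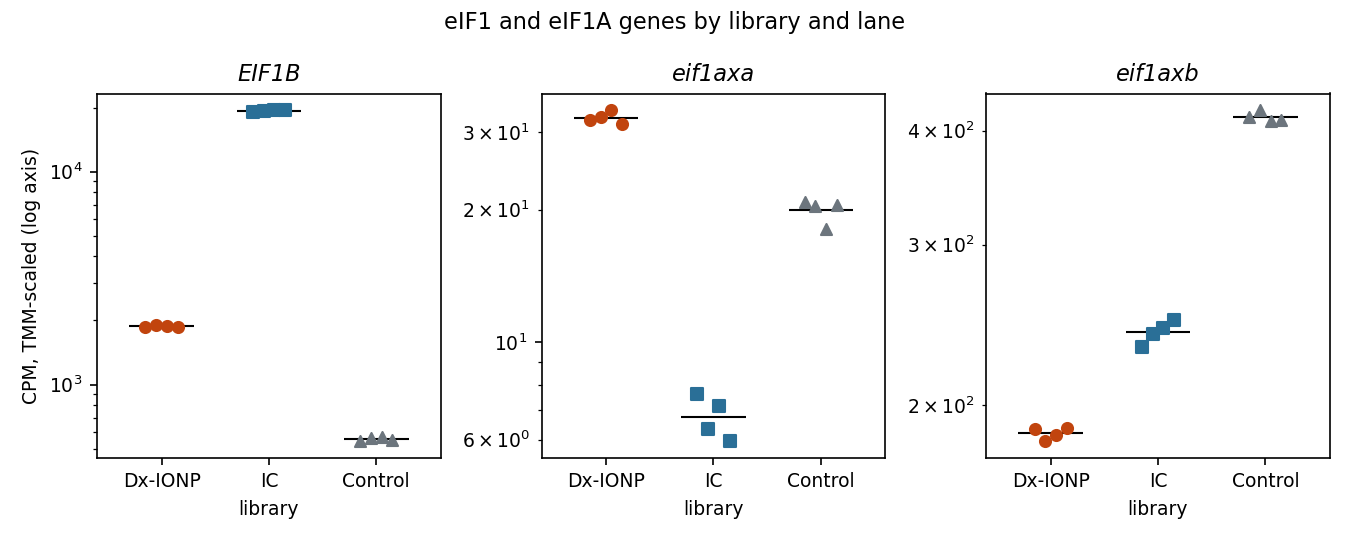
CPM (log axes, a separate range in each panel) of EIF1B, eif1axa and eif1axb in Dx-IONP, IC and Control, with 1 point per lane and a line at the value of the summed library. EIF1B is highest in IC at 19334 CPM, eif1axa is lowest there at 6.77, and eif1axb is highest in Control at 414.

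With EIF1B, the 61 genes summed to 31479 CPM in Dx-IONP, 32812 in IC against 22421 in Control. EIF1B alone made up 5.99% of the reads of the 61 genes in Dx-IONP, 58.9% in IC against 2.47% in Control. Without it, the sums were 29595 CPM in Dx-IONP, 13478 in IC against 21868 in Control, or 1.35-fold and 0.616-fold the Control level. The 17 elongation rows summed to 20081 CPM in Dx-IONP, 7996 in IC against 13874 in Control. Most of that sum in each library came from eef1a1l1 and eef2b. In Dx-IONP, IC and Control, eef1a1l1 had 10799.5, 3840.3 and 7980.0 CPM, and eef2b had 6567, 2511 and 3932. The initiation rows without EIF1B summed to 9514 CPM in Dx-IONP, 5482 in IC against 7993 in Control. These sums without EIF1B were highest in Dx-IONP and lowest in IC, except that as a share of total reads the initiation rows were highest in Control (0.816% in Dx-IONP, 0.577% in IC against 0.885% in Control).

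**Figure D3:**
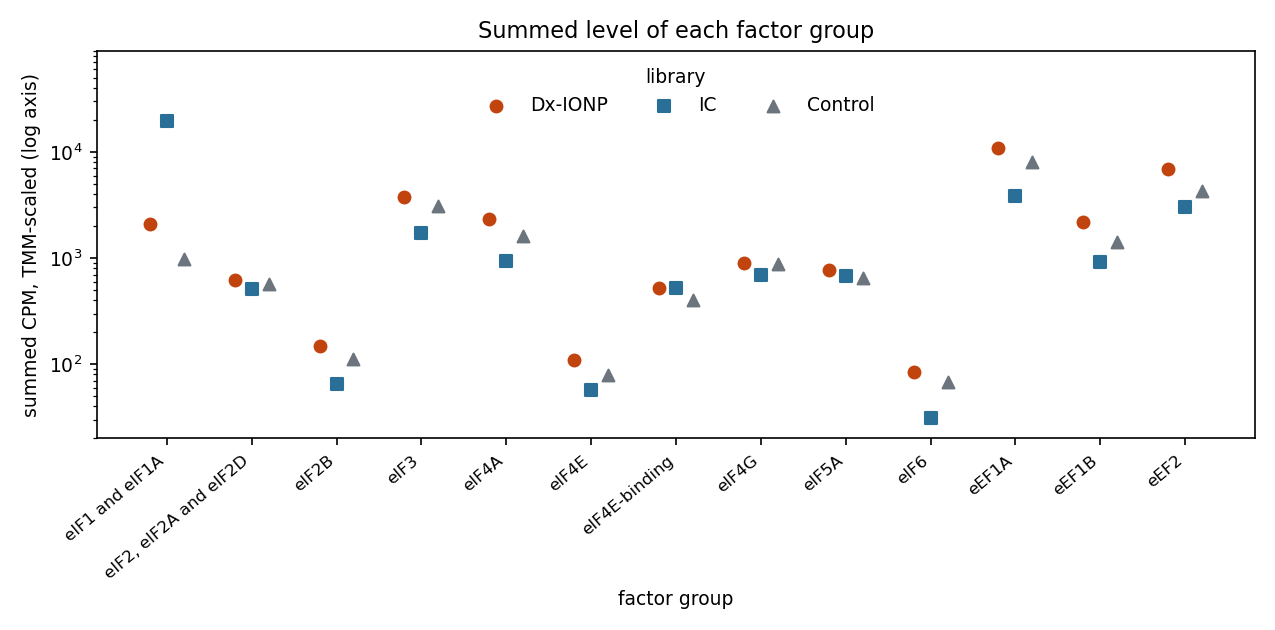
Summed CPM (log axis) of each factor group in Dx-IONP, IC and Control, 1 library each, so no error bars are drawn. In IC the eIF3 sum is 1706 CPM, against 3111 in Control, and the eIF1 and eIF1A sum of 19581 CPM is nearly all EIF1B.

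The eIF2 subunits went different ways. EIF2S2, the beta subunit, was called lower in both comparisons with Control, with 69.7 CPM in Dx-IONP (69.2 to 70.1), 63.6 in IC (62.4 to 65.5) against 142 in Control (139 to 146). Its log2 fold was -1.03 in Dx-IONP and -1.16 in IC. EIF2S3B, listed as the gamma subunit, had 359 CPM in Dx-IONP, 335 in IC against 240.5 in Control and was not called (0.58 and 0.48). Of the alpha subunit genes, ENSDARG00000005827 was called lower in IC (-1.13) and ENSDARG00000052178 was not (-0.66). In Dx-IONP neither was called (0.30 and 0.19). The sum of both alpha subunit genes was called in neither library (0.22 in Dx-IONP and -0.78 in IC). EIF2A, which can bring initiator tRNA to the ribosome without eIF2 and is not one of its subunits, had 12.3 CPM in Dx-IONP (11.3 to 14.4), 23.9 in IC (23.2 to 24.5) against 43.1 in Control (41.6 to 44.2). It was called lower in Dx-IONP (-1.81, -1.94 to -1.69) and not in IC (-0.85). EIF2D, a factor that frees tRNA and mRNA from small subunits after termination, was at 0.75 in Dx-IONP and -0.74 in IC and was called in neither.

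eIF2B is the exchange factor that reloads eIF2 with GTP. Of its 4 measured subunits, 1 was called lower in IC against Control, where 15.1% of all genes were lower. It was EIF2B5, which carries the catalytic activity (14.4 CPM in IC against 30.6 in Control, log2 fold -1.09). The others lay between -0.77 and -0.45. In Dx-IONP none of the 4 was called, against 45.1% of all genes, with log2 folds from -0.02 to 0.55. Among the eIF2 kinases, 0 of the 4 rows kept were called against Control in either library. Their log2 folds were 0.21 to 0.70 in Dx-IONP and -0.82 to 0.44 in IC. Over all genes, 45.1% were called in Dx-IONP and 29.2% in IC, and counts out of 4 rows say little.

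Targets of the stress response that eIF2 phosphorylation sets off were read from a list of 22 names, of which 19 had a row. In Dx-IONP against Control 7 were called higher and 1 lower (median 0.25), against 20.9% and 24.2% of all genes. In IC against Control 2 were called higher and 2 lower (median 0.08), against 14.1% and 15.1%, so the IC counts were no larger than the background. DDIT4, an inhibitor of mTORC1, was highest in Dx-IONP at a log2 fold of 1.99, followed by ppp1r15b, a phosphatase subunit for eIF2, at 1.47, and by sesn2 and PHGDH at 1.43 each. The one lower gene was atf4b, a paralog of the central transcription factor of that response, at -1.94. The other paralog, atf4a, was not called (0.30 in Dx-IONP and -0.23 in IC). Its level in Dx-IONP was 358 CPM against 292 in Control, and that of atf4b was 87.3 against 336. DDIT3 (-0.83), CHAC1 (0.25) and ppp1r15a (-0.09) were among the genes not called in Dx-IONP. In IC, ppp1r15b (1.25) and atf5b (1.12) were called higher, and CHAC1 (-1.14) and DDIT3 (-1.04) lower.

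Many of the lower values in IC belonged to eIF3. It is the large scaffold that holds the small subunit, the eIF4 factors and the other initiation factors together. In IC against Control 7 of 12 were called lower and 0 higher, against 15.1% and 14.1% of all genes, with a median log2 fold of -1.10 and 11 of 12 below 0. In Dx-IONP against Control 2 were called higher and 1 lower, against 20.9% and 24.2% of all genes, with a median of 0.04. That balance turned with the scaling. Scaled to total reads 0 were higher and 3 lower (median -0.33), and by the upper quartile 1 was higher and 2 lower (median -0.05), against 19% and 25.7% of all genes.

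EIF3K had 202 CPM in Dx-IONP (200 to 205), 34.3 in IC (33.4 to 35.5) against 119 in Control (117 to 122), a log2 fold in IC of -1.80 (-1.87 to -1.72). EIF3F had 332 CPM in Dx-IONP, 124 in IC (122 to 128) against 362 in Control (359 to 369), and EIF3L had 205, 86.8 and 248 CPM in that order. Their log2 folds in IC were -1.55 and -1.52. These genes, with EIF3H, EIF3M, EIF3A and eif3ea, encode members of the core octamer of the complex, within which the IC values ranged from -1.91 for EIF3H (ENSDARG00000102452) to -0.28 for eif3ea. EIF3A, the largest subunit, was not called (-0.70 in Dx-IONP and -0.60 in IC), although it was lower in Dx-IONP when scaled to total reads (-1.07).

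EIF3M had 659 CPM in Dx-IONP (636 to 668), 156 in IC (154 to 159) against 320.3 in Control (318 to 324). It was called higher in Dx-IONP (1.04) and lower in IC (-1.04). EIF3I, a subunit of the mobile eIF3 module, had 615 CPM in Dx-IONP (607 to 624), 179 in IC (177 to 180.0) against 286 in Control (283 to 291). It was called 2.15-fold higher in Dx-IONP, and was not called in IC (log2 fold -0.68). Scaled to total reads, neither was called in Dx-IONP (log2 folds of 0.67 and 0.73), and EIF3M was not called there by the upper quartile (0.95). EIF3B, of the same module, was called lower in IC (-1.17). EIF3J, a loosely bound subunit, has paralogs that are described with the other paralogs.

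**Figure D4:**
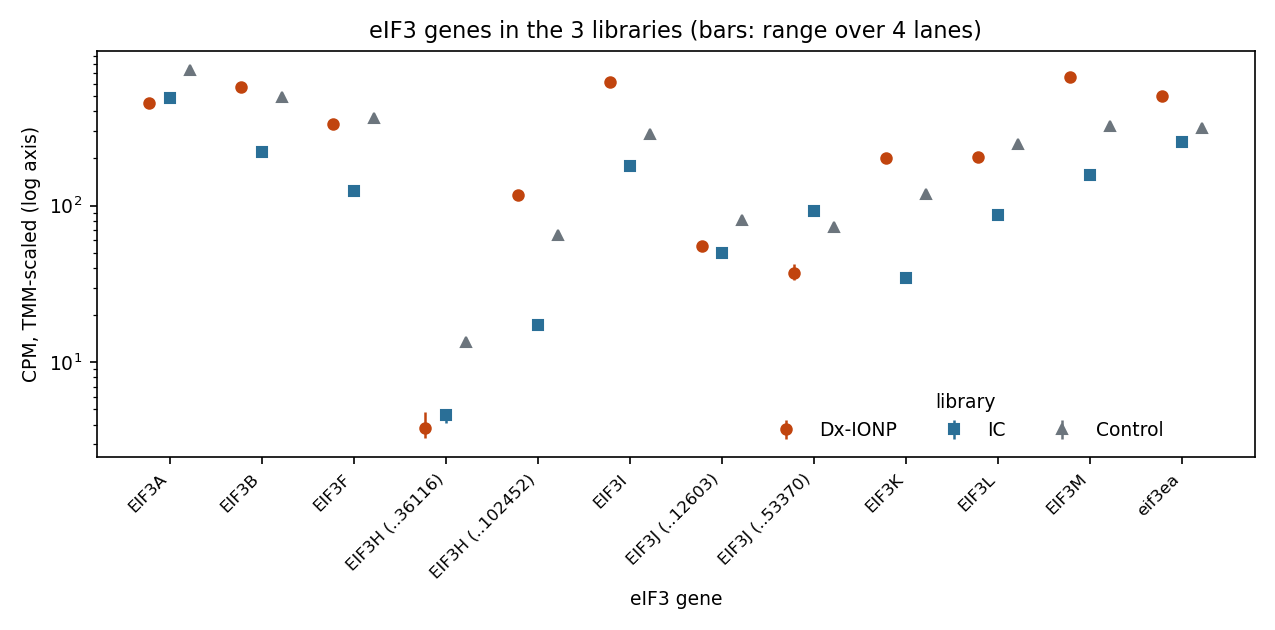
CPM (log axis) of the 12 eIF3 rows in Dx-IONP, IC and Control, with bars for the range over 4 lanes, most of them smaller than the symbols. IC lies below Dx-IONP in 9 of the 12 and below Control in 11, while EIF3J (ENSDARG00000053370) is highest in IC at 92.1 CPM. Heights are not comparable between genes.

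At the cap, the eIF4A genes encode the helicase that unwinds the mRNA leader. For eif4a1a the level was 983 CPM in Dx-IONP (965 to 993), 281 in IC (269 to 291) against 789.8 in Control (782 to 797), with a log2 fold of -1.49 (-1.52 to -1.47) in IC. Its paralog eif4a1b had 1217 CPM in Dx-IONP, 592 in IC against 699 in Control and was not called (-0.24 in IC). EIF4A3, which sits in the exon junction complex and not at the cap, was called lower in IC (-1.06). None of the 3 was called in Dx-IONP against Control (-0.02 to 0.80), where 45.1% of all genes were called. EIF4B, which aids the helicase, was not called in either (0.14 and -0.45).

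Of the cap-binding proteins themselves, eif4eb was called higher in Dx-IONP, with 39.4 CPM in Dx-IONP (36.0 to 43.3), 22.3 in IC against 19.3 in Control (18.2 to 20.0). Its log2 fold of 1.03 lay just past the threshold and was 0.97 without lane 3, 0.94 by the upper quartile and 0.66 scaled to total reads. EIF4E was not called against Control (0.44 in Dx-IONP and -0.84 in IC), nor was EIF4E2, a cap-binding repressor (-0.67 and -0.68), which was lower in Dx-IONP when scaled to total reads (-1.04). The scaffold EIF4G3 has paralogs, of which ENSDARG00000077215 had 40.1 CPM in Dx-IONP (35.2 to 46.5), 44.6 in IC (43.3 to 46.5) against 121 in Control (115 to 128) and was called lower in both (-1.59 and -1.44). EIF4G2, an eIF4G relative that does not bind eIF4E, was not called (0.24 and -0.29).

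Among genes for eIF4E-binding proteins, EIF4EBP3 (ENSDARG00000041607) had 99.6 CPM in Dx-IONP (92.2 to 104), 51.4 in IC (47.9 to 55.6) against 36.9 in Control (35.2 to 39.9). It was called higher in Dx-IONP (1.43). Its paralog eif4ebp3 (ENSDARG00000054916) was called lower there (-1.41), with 3.31 CPM against 8.85 in Control. The sum of this pair was called higher in Dx-IONP (1.17) and was not called in IC (0.30). EIF4EBP2 was not called (0.44 in Dx-IONP and 0.66 in IC), nor was eif4ebp1 (-0.76 and -0.82), which was lower in Dx-IONP when scaled to total reads (-1.13). In the mTORC1 list, whose kinase frees eIF4E by phosphorylating these proteins, 0 of 12 rows kept were called higher and 2 lower in Dx-IONP against Control, and 0 were called in IC against Control. The background was 14.1% higher and 15.1% lower in IC. In Dx-IONP it was 20.9% higher and 24.2% lower, so 2 of 12 was no more than over all genes. The lower rows were LARP1, which binds mRNAs of the translation machinery (-2.03), and TSC1 (ENSDARG00000057918), part of the complex that restrains mTORC1 (-1.41). In Dx-IONP against IC 1 row was called higher and 2 lower, against 24.1% and 26.5% of all genes.

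EIF5A2, for the hypusine-bearing factor that helps stalled ribosomes, was close to equal in the 3 libraries, with 771 CPM in Dx-IONP (723 to 797), 672 in IC (662 to 684) against 651 in Control (639 to 667). EIF6, which keeps the large subunit from joining too early, had 84.7 CPM in Dx-IONP, 31.2 in IC against 67.7 in Control and was called lower in IC (-1.12). A list of hypusine and polyamine genes held both enzymes of synthesis and regulators. Of its rows, 1 of 9 was called higher in Dx-IONP and 4 of 9 in IC, with 0 lower in either. Over all genes, 20.9% were called higher in Dx-IONP and 14.1% in IC. AMD1, a rate-limiting enzyme of polyamine synthesis, was called in both (1.06 in Dx-IONP and 1.73 in IC). The 3 others in IC were regulators, the rows of AZIN1, an inhibitor of antizyme (1.57 and 1.18), and oaz1b, an antizyme (1.08). The hypusine enzyme gene dohh was not called (0.14 in Dx-IONP and -0.71 in IC). Nor were the polyamine enzyme genes ODC1 (-0.06 and -0.49), SRM (0.56 and 0.11) and SMS (-0.53 and -0.38). In Dx-IONP against IC 0 were higher and 2 lower, against 24.1% and 26.5% of all genes.

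The eEF1A reads came almost wholly from eef1a1l1. Its level was 10799.5 CPM in Dx-IONP (10741 to 10835), 3840.3 in IC (3824 to 3864) against 7980.0 in Control (7964 to 8005), so the lanes were tight and the libraries apart. It was called lower in IC (-1.06, -1.06 to -1.05) and was not called in Dx-IONP (0.44). The EEF1A1 rows were both called lower in Dx-IONP. ENSDARG00000039502 had 16.4 CPM in Dx-IONP (15.8 to 17.8), 25.7 in IC (24.2 to 27.5) against 50.1 in Control (48.9 to 51.2), a log2 fold of -1.61. ENSDARG00000069951 had 5.77 CPM in Dx-IONP, 10.5 in IC against 17.1 in Control (-1.56). In IC they were at -0.96 and -0.70 and were not called, although ENSDARG00000039502 passed the threshold without lane 4 (-1.002).

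The eEF1B exchange complex, which returns eEF1A to its GTP form, held the lowest log2 fold of the 57 genes in IC. For eef1da, the delta subunit, the level was 637 CPM in Dx-IONP (626 to 644), 64.3 in IC (62.7 to 67.3) against 439 in Control (434 to 447). Its log2 fold was -2.77 (-2.82 to -2.72) in IC, rank 167 from the lowest of 16807 genes, and 0.54 in Dx-IONP. EEF1B2, a catalytic subunit, had 536 CPM in Dx-IONP (527 to 549), 87.5 in IC (81.4 to 93.6) against 207 in Control (203 to 209). It was called higher in Dx-IONP (1.37, 1.35 to 1.40) and lower in IC (-1.24, -1.29 to -1.19). EEF1G, the structural gamma subunit, had 996 CPM in Dx-IONP, 763 in IC against 787 in Control and was called in neither (0.34 and -0.04).

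EEF1E1, named as an elongation factor but known as a part of the complex of tRNA synthetases, had 5.67 CPM in Dx-IONP (4.29 to 6.88), 26.5 in IC (25.5 to 27.7) against 20.1 in Control (19.3 to 21.5). It had the lowest log2 fold of the 57 in Dx-IONP against Control (-1.82, -2.02 to -1.64). EEF1AKMT1, a methyltransferase that modifies a lysine of eEF1A, had 27.3 CPM in Dx-IONP (25.7 to 28.9), 9.60 in IC (8.82 to 10.1) against 8.89 in Control (8.47 to 9.59). It was called higher in Dx-IONP (1.61, 1.49 to 1.75). The methyltransferase genes EEF1AKMT2 and EEF1AKMT4 were not called (-0.59 and 0.17 in Dx-IONP, -0.97 and 0.48 in IC).

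Among the eEF2 genes, eef2b had 6567 CPM in Dx-IONP (6548 to 6590), 2511 in IC (2506 to 2524) against 3932 in Control (3895 to 3955) and was not called against Control (0.74 and -0.65). EEF2 had 263 CPM in Dx-IONP, 439.6 in IC against 277 in Control (-0.07 and 0.67). For eef2a.1 the level was 43.3 CPM in Dx-IONP (41.1 to 44.4), 90.9 in IC (87.4 to 93.5) against 44.9 in Control (42.4 to 47.1). It was called higher in IC at 1.02, a value of 0.94 when scaled to total reads and 0.98 by the upper quartile, where it was not called. The low eef2a.2 had 1.85 CPM in Dx-IONP, 7.14 in IC against 5.50 in Control and was called lower in Dx-IONP (-1.55). EEF2K, the kinase that inhibits eEF2, lay just outside a call in Dx-IONP (0.95) and was at 0.26 in IC.

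Paralogs of one factor often differed in their folds. Salmon, which the submitters' notes list, assigns reads that fit several transcripts by likelihood, so each split is uncertain where the sequences are close. Of the eif1ax reads, eif1axa made up 14.8% in Dx-IONP (exact 95% binomial interval 14.1 to 15.5), 2.74% in IC (2.46 to 3.04) and 4.59% in Control (4.39 to 4.80). The sum of eif1axa and eif1axb was called in neither library (-0.99 in Dx-IONP and -0.81 in IC). Of the EIF3H reads, ENSDARG00000036116 made up 3.14% in Dx-IONP, 21.0% in IC against 17.0% in Control. In Dx-IONP against Control it was called lower (-1.81) while ENSDARG00000102452 was at 0.85, and the sum of both was not called (0.62). In IC both were called lower (-1.53 for ENSDARG00000036116 and -1.91 for ENSDARG00000102452), as was their sum (-1.84). The level of ENSDARG00000036116 was 3.81 CPM in Dx-IONP, 4.62 in IC against 13.4 in Control. That of ENSDARG00000102452 was 118 CPM in Dx-IONP, 17.3 in IC against 65.4 in Control.

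The eif4a1 reads held more of eif4a1b in Dx-IONP and IC than in Control. The share of eif4a1a was 44.7% in Dx-IONP, 32.2% in IC against 53.0% in Control, and no call remained in IC for the summed pair (-0.77). The share of eif4eb in the EIF4E pair was 39.6% in Dx-IONP, 47.4% in IC against 30.3% in Control. The summed EIF4E pair was not called (0.64 in Dx-IONP and -0.44 in IC). EIF3J (ENSDARG00000053370) held 40.1% of its pair in Dx-IONP, 65.0% in IC against 47.1% in Control. The other EIF3J row, ENSDARG00000012603, was not called (-0.55 in Dx-IONP and -0.72 in IC). In the EIF4G3 pair, ENSDARG00000074331 held 41.2% in Dx-IONP, 63.5% in IC against 32.2% in Control. Its lanes varied from 21.8 to 34.0 CPM in Dx-IONP, 64.3 to 91.2 in IC and 50.5 to 66.1 in Control, far beyond counting noise (chi-square per degree of freedom of 11.8, 28.8 and 17.3), so this split is uncertain. Its call as lower in Dx-IONP (-1.03) was lost without lane 1 (-0.85), whereas the sum of the pair was called lower (-1.38). In IC the sum of the EIF4G3 pair was not called (-0.55), although ENSDARG00000077215 alone was called lower there.

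**Figure D5:**
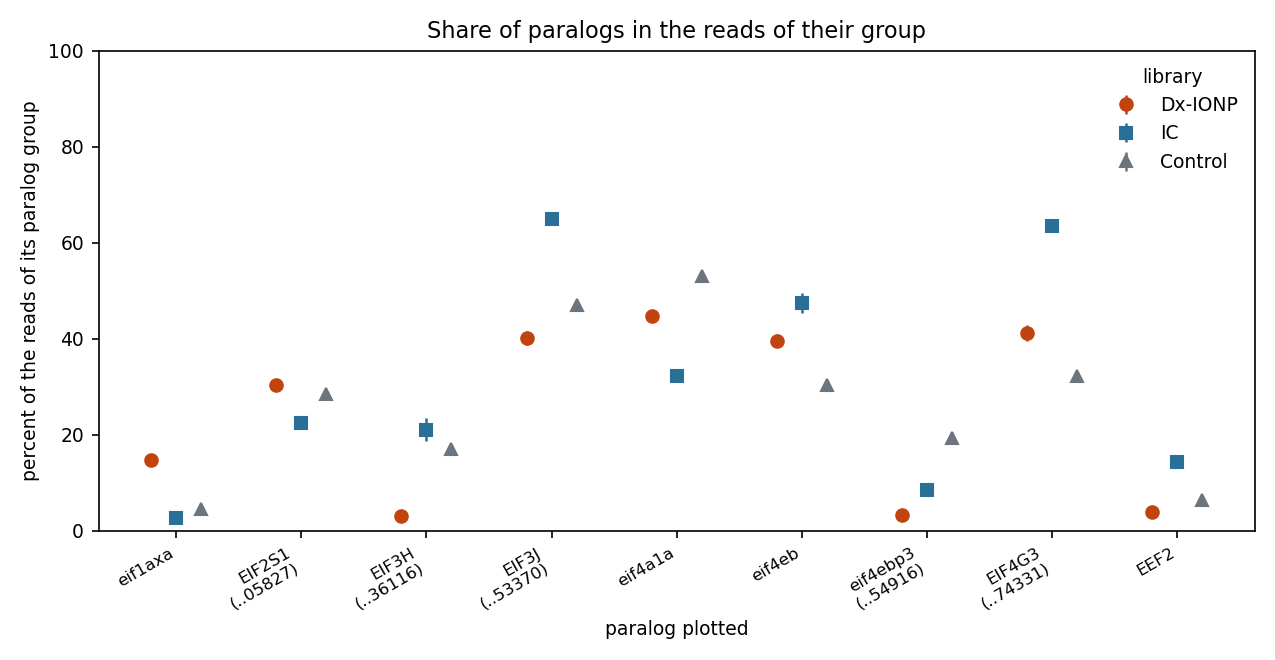
Share (%) of the reads of a paralog group held by 1 of its genes in Dx-IONP, IC and Control, with exact 95% binomial intervals that are mostly smaller than the symbols and cover counting error only. The share of eif1axa is 14.8% in Dx-IONP against 4.59% in Control, and that of EIF4G3 (ENSDARG00000074331) is 63.5% in IC against 32.2% in Control.

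With the rows of each paralog group summed, the 57 genes became 44 units. In Dx-IONP against Control 6 units were called higher and 4 lower, against 20.9% and 24.2% of all genes. In IC against Control 1 was higher and 14 lower, against 14.1% and 15.1%. The eEF2 group, of 4 rows, was not called against Control in either library (0.69 and -0.48).

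The ratio of Dx-IONP over IC leaves the Control library out. EIF1B was far lower in Dx-IONP, while 2 of 3 eEF1B rows, 7 of 12 eIF3 rows and 3 of 3 eIF4A rows were called higher. Of the 57 genes, 22 were called higher (38.6%) and 6 lower (10.5%), against 24.1% and 26.5% over all genes (50.6% in either direction). The median log2 fold was 0.73 (order-statistic interval over the genes 0.13 to 1.04), against 0.03 over all genes. Scaled to total reads, 18 were higher and 9 lower, against 17.7% and 32% of all genes.

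EIF1B was at -3.36 (-3.37 to -3.35), or 10.3-fold lower in Dx-IONP. The highest was eef1da at 3.31 (3.26 to 3.36), 9.91-fold higher, followed by EIF3H (ENSDARG00000102452) at 2.76, EEF1B2 at 2.62, EIF3K at 2.56, eif1axa at 2.25 and EIF3M at 2.08. The helicase gene eif4a1a was at 1.81, EIF3I at 1.78, eef1a1l1 at 1.49 and eef2b at 1.39. EEF1E1 (-2.22), eef2a.2 (-1.93), the EIF4G3 row ENSDARG00000074331 (-1.46), the EIF3J row ENSDARG00000053370 (-1.30) and eef2a.1 (-1.07) were the other lower ones. The eIF3 rows were called higher for 7 of 12 and lower for 1, and all 3 eIF4A rows were called higher, of which eif4a1b (1.04) and EIF4A3 (1.04) lay just past the threshold and were not called by the upper quartile (0.99 each) or scaled to total reads (0.74 each).

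Other parts of the translation machinery were read from lists. Of 16 rows for cytosolic aminoacyl-tRNA synthetases and their cofactors, which charge the tRNAs that eEF1A carries, 3 were called higher in Dx-IONP against Control and 0 lower (median 0.65), near the 20.9% of all genes called higher. In IC 0 were called higher and 6 lower (median -0.82), against 15.1% of all genes lower. In Dx-IONP against IC 12 were higher and 0 lower (median 1.47), against 24.1% of all genes higher. RARS1, for arginine, had 78.0 CPM in Dx-IONP, 10.05 in IC against 33.2 in Control. TARS1, for threonine, was also called higher in Dx-IONP (1.43), and FARSA and KARS1 were lower in IC (-1.39 and -1.34). Of 7 mitochondrial translation factors, 5 were called lower in IC (median -1.17), against 15.1% of all genes, among them mtif3 (-1.63) and GFM1 (-1.28). In Dx-IONP against Control 0 were called (median 0.17), against 45.1% of all genes.

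For termination and recycling, 1 of 8 rows was called lower and 0 higher in Dx-IONP against Control. In IC 1 was higher and 2 lower, against 14.1% and 15.1% of all genes. The lower row in Dx-IONP was etf1a (-1.06), at 1.24 CPM in Dx-IONP against 2.63 in Control. ETF1 (ENSDARG00000043976), which recognises stop codons, had 233 CPM in Dx-IONP, 84.5 in IC against 234.4 in Control, and was lower in IC (-1.47), as was DENR, a recycling factor (-1.52). The release factor GTPase gene gspt1 (ENSDARG00000031048) had 44.9 CPM in Dx-IONP, 148 in IC against 50.5 in Control and was called higher in IC (1.55). In Dx-IONP against IC 3 were higher and 1 lower, against 24.1% and 26.5% of all genes. The lower share in Dx-IONP against Control was below the 24.2% of all genes. Of 3 rows for poly(A)-binding proteins and their partners, PAIP2B, an inhibitor of the poly(A)-binding protein, was called lower in Dx-IONP (-2.70) and 0 were called in IC. Over all genes, 24.2% were lower in Dx-IONP and 29.2% were called in IC.

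The 5 genes whose pair of log2 folds over Control lay nearest to that of EIF1B, among 2584 others that reached 100 CPM in 1 of the libraries compared, were ppp1r27a, MATN3, zgc:56585, PNP and RNF170. Nearness is the straight-line distance on the log2 scale, and it was 1.93 for ppp1r27a and 2.45 for RNF170. PNP had 337 CPM in Dx-IONP, 764 in IC against 94.8 in Control.

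The 4 rows under the filter were eef1a1l3, eef1a2, eif4ba and eif4e1c. eif4ba had 0 reads in all 3 libraries, which allows up to 0.0632 CPM in Dx-IONP, 0.0590 in IC against 0.0322 in Control from 3 counts. For eef1a1l3 there were 3, 7 and 8 reads in Dx-IONP, IC and Control. eef1a2, whose mammalian counterpart is made in neurons and muscle, had 4 reads in Dx-IONP, 14 in IC against 83 in Control, or 0.0842, 0.275 and 0.892 CPM. For eif4e1c there were 0 reads in Dx-IONP, 2 in IC against 57 in Control, which puts it at least 9.69-fold lower in Dx-IONP than in Control with 3 counts taken as the floor for Dx-IONP. The Control reads were uneven, with 12, 19, 26 and 0 in its lanes, so 1 Control lane was at the Dx-IONP level and the bound rests on the other 3. Its ratio of IC over Control was 0.0642 (counting interval on the log2 scale -7.04 to -2.04).

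Near the threshold, the calls in Dx-IONP against Control with the smallest folds were EIF4G3 (ENSDARG00000074331) and EIF2S2, both at -1.03, and the nearest values not called were EEF2K at 0.95 and EIF3J (ENSDARG00000053370) at -0.96. In IC against Control eef2a.1 (1.02) and EIF3M (-1.04) lay just inside, and EEF1A1 (ENSDARG00000039502, -0.96) and EEF1AKMT2 (-0.97) just outside. All 18 genes called in Dx-IONP against Control, all 21 in IC against Control and all 28 in Dx-IONP against IC had lanes that did not overlap between the 2 libraries compared, which shows the precision of sequencing and nothing of the spread between larvae. The matching share over all genes called is not given here, so these counts are no trait of the translation factors.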

How the data were processed

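The authors deposited a gene table of estimated counts with 1 column per lane, not normalized and already whole, so no rounding was needed. The build GRCz11, Salmon 1.6.0, FastQC, DESeq2 1.34.0 and R 4.1.2 are named, with no role, per the submitters' processing notes. Whether strand was used, and how transcripts were summed to genes, is not stated in the labels. Single lanes held 13569110 to 14063966 reads for Dx-IONP, 11847840 to 12239616 for IC and 20606371 to 21329490 for Control. The 4 lanes of a library were summed. Between lanes, chi-square per degree of freedom had a median over the factor genes of 1.36 in Dx-IONP, 0.763 in IC with 1.28 in Control, where sampling alone gives 0.79. Symbols came from a name table (19182 of 19983 rows).

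TMM factors (edgeR 4.0.16, R 4.3.3) were 0.86, 1.05 and 1.11 for Dx-IONP, IC and Control. Genes with at least 1 CPM in a library were kept, and log2 folds used a prior count of 2. Conditions were not tested against each other, as each has 1 library. The interval code was tested on simulated data. All members are described; those given in full are the eIF1, eIF1A, eEF1A and eEF2 genes and the 10 largest called folds per comparison at 10 CPM or more. From the other lists, up to 4 called genes are named. Members and lists were chosen with earlier results of these data known. Other scalings (total reads, upper quartile, DESeq2 1.42.0 size factors), filters, a prior count of 0.5, a 1.5-fold threshold, summed paralogs and leaving out each lane were tried, with TMM on each pair of libraries added after seeing the data. Lengths of transcripts or proteins and sequences were not used here, so a planned comparison of folds with coding length was not run. Whether the lower values in IC go with short transcripts was thus not tested. Python 3.11.15 with numpy 2.4.6, pandas 2.3.3, scipy 1.17.1 and matplotlib 3.10.9 was used.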

Additional observations from a re-analysis of the deposited data

Results flagged for a closer look

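EEF1B2 was called in opposite directions against Control, at a log2 fold of 1.37 in Dx-IONP and -1.24 in IC, as was EIF3M, at 1.04 in Dx-IONP and -1.04 in IC. In each case all 4 lanes lay on the same side. The EIF3M call in Dx-IONP was lost when scaled to total reads (0.67) and by the upper quartile (0.95). Its value in IC lay just inside the threshold. Both comparisons share the Control library, and the difference was not tested, since there is 1 library per condition. The log2 fold of Dx-IONP over IC was 2.62 for EEF1B2 and 2.08 for EIF3M.

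Among 81 sets of 4 lanes checked, 4 held a lane apart from the other 3 by Dixon's criterion, and chance gives about 1 set in 20. EEF1A1 (ENSDARG00000039502) had 17.8 CPM in a Dx-IONP lane and 15.8 to 16.1 in the others. EIF2A had 14.4 CPM in a Dx-IONP lane and 11.3 to 11.7 in the others. EIF3M had 636 CPM in a Dx-IONP lane and 666 to 668 in the others, and eef2b had 2524 CPM in an IC lane and 2506 to 2507 in the others. Of these, EIF2A in Dx-IONP against IC was not called (-0.96) but was lower without lane 3 (-1.05).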

How the results depend on the processing

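No paired analysis was possible because the lane numbers that the groups share mark lanes of 1 library each and no test was made. With total reads alone, 4 genes were called higher in Dx-IONP against Control (7 as reported), against 13.9% of all genes, with a median of -0.13. In IC against Control 1 was called higher (2 as reported), against 12.5% of all genes, as also by the upper quartile (1, against 13.1%). At 1.5-fold, 15 were higher in Dx-IONP against Control (31.6% of all genes), 4 higher and 36 lower in IC against Control (26.6% and 27.4%), and 10 lower in Dx-IONP against IC (34.5%). With paralogs summed, 4 units were lower in Dx-IONP against Control, 1 higher in IC against Control and 2 lower in Dx-IONP against IC, from fewer units. The shares over all genes, not summed, were 24.2%, 14.1% and 26.5% in that order. Filters, prior count, DESeq2 size factors, TMM on each pair and leaving out a lane moved no count of calls by over 1.5 times. Without each lane in turn, Dx-IONP against Control had 6 to 7 higher and 10 to 12 lower, IC against Control 2 higher and 19 to 20 lower, and Dx-IONP against IC 22 to 23 higher and 6 to 7 lower. No called fold of a gene described in full changed sign under any setting run. Without a lane, EIF1AD passed the threshold in Dx-IONP against IC (1.05 without lane 2), as did EIF3J (ENSDARG00000053370) in Dx-IONP against Control (-1.03 without lane 4). This EIF3J row was also called lower in Dx-IONP against Control scaled to total reads (-1.33) and by the upper quartile (-1.05).

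Depth limits little here except for the 4 rows under the filter. What limits every result is the single pool and library per condition, so that the treatment and the library cannot be told apart.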
